A study of Homo sapiens with 6 samples.

Results

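The transcription factors that specify and shape the neural crest were followed in SU-CCS-1, an established cell line of clear cell sarcoma (CCS), after knockdown of the EWSR1::ATF1 fusion (EA1). The factors, and the gene lists set beside them below, were chosen by name with earlier results of these data known. The factors were 10 genes: SOX10, SOX9, SOX5, SOX6, SOX4, TFAP2A, PAX3, FOXD3, SNAI2 and ZEB2. Of these, 9 had a row in the table of 18118 genes, and all 9 were among the 14571 genes that passed the filter on low counts. PAX3 was not analysed here. The 6 libraries of polyadenylated RNA were 2 of cells given a scramble control siRNA (siNeg1), 2 of cells given the EA1 siRNA siEA1-1 and 2 of cells given the EA1 siRNA siEA1-2. All were SU-CCS-1 tumor cells, which carry the fusion, so the line stands as 1 model of the disease, and the study's methods describe 1 EA1 siRNA whereas the sample labels list 2. Neither the labels nor the methods say whether replicates were separate cultures, so the p-values measure only the spread between these libraries, which may be technical.

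Values are read counts, or counts scaled to the TMM-normalized library total (CPM), and log2FC is EA1 siRNA minus siNeg1, so that a positive value is higher after knockdown. A gene was called at a Benjamini-Hochberg adjusted p under 0.05 over all genes tested, from edgeR's quasi-likelihood test. Total counts were between 5942808 and 7599305, and 3 counts, taken as the smallest level told from 0, corresponded to 0.395 to 0.505 CPM, which covers counting error only. ATF1, whose row also holds reads of the fusion, stood at 82.2 and 87.4 CPM with siNeg1, 21.2 and 20.3 with siEA1-1 and 21.7 and 22.3 with siEA1-2. Its log2FC was -2.03 (SE 0.13, adjusted p = 6.7e-07) with siEA1-1 and -1.94 (SE 0.13, adjusted p = 1.05e-06) with siEA1-2. EWSR1, the other gene of the fusion, was called with neither siRNA. Reads of the fusion and of ATF1 itself cannot be told apart in the ATF1 row.

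The neural crest is the embryonic cell population that leaves the border of the neural plate and gives rise to melanocytes, peripheral glia and parts of the facial skeleton. TFAP2A, PAX3 and FOXD3 act early in its specification, SOX9 and SOX10 set and maintain crest and glial or melanocytic identity, and the repressors SNAI2 and ZEB2 accompany the change from epithelium to migrating cells. SOX5 and SOX6 are partners that lack an activation domain and modulate SOX9 and SOX10, and SOX10 with PAX3 activates MITF, the regulator of the melanocyte lineage. CCS shares melanocytic markers with melanoma, and the ATF1 part of the fusion carries the DNA-binding domain that recognises ATF/CREB sites.

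The promoters are shown because ATF1 has a known site, TGACGTCA. RefSeq entries (GRCh38.p14, 250 bases before to 50 after a start) were held for 6 of the 9 factors, with 11 promoters in all. SOX10, SOX9 and SNAI2 had no entry, and 5 of the 11 promoters were of SOX6. Both strands were searched. The palindrome TGACGTCA is a case of TGANNTCA and contains the shorter TGACG. It was in 1 of the 11 promoters, that of FOXD3, 72 bases before the start, and in 1.85% of 35116 RefSeq promoters of the same length. TGANNTCA was in 4 of the 11, against 11.5% of all promoters, and TGACG was in 3, against 24.6%. The sequences below run 5′ to 3′ on the gene's strand, and capitals mark TGANNTCA or TGACG, the latter on either strand. The TGANNTCA match of SOX6 promoter 2, 10 bases after the start, is not printed. The first and second sequences are the 250 bases before the start, and the others are windows of 30 bases around a match.
FOXD3, chr1:63322317-63322566, plus strand: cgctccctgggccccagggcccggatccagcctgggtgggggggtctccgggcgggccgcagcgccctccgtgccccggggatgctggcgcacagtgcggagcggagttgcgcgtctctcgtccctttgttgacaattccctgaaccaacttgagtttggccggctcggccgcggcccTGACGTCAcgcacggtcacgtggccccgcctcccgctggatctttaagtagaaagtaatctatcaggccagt
SOX4, chr6:21593501-21593750, plus strand: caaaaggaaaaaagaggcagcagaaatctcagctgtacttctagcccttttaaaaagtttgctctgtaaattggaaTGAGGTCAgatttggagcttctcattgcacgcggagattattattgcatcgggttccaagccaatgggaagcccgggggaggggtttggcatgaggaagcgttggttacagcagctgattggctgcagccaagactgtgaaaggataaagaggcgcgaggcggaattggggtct
SOX6 promoter 1, chr11:16738622-16738651, minus strand: tctctgccacagtCGTCAccgttgcggccc
SOX6 promoter 3, chr11:16408892-16408921, minus strand: tgagccatttaTGACATCAttcttcttgtg
ZEB2, chr2:144520152-144520181, minus strand: aagaggcgtaacaCGTCAgtccgtccccag

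No promoter of SOX5 or TFAP2A held TGANNTCA or TGACG. Of the motifs that the factors themselves bind, CACCTG, read by SNAIL and ZEB proteins, was in 0 of the 11 promoters, against 20.6% of all. ACAATG, a SOX motif, was in 3, namely that of SOX5, which held it at 180 and at 138 bases before the start, and SOX6 promoters 4 and 5, against 10.8% of all. GCCNNNGGC, bound by TFAP2 factors, was in 1, SOX6 promoter 1, against 23.2% of all. TGAGTCA, the AP1 motif, was in 0, against 4.95%. A match is a string of letters in these windows and was not taken as a bound site.

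Of the 9 factors measured, 6 rose with each EA1 siRNA and 0 fell: SNAI2, SOX5, SOX6, TFAP2A, SOX4 and ZEB2. SOX10, SOX9 and FOXD3 did not pass the test with either siRNA. FOXD3 (2 and 1 counts with siNeg1) and SOX5 (6 and 17) would not have passed the filter on low counts in the siNeg1 libraries alone. Such genes were tested because of knockdown libraries where they are high, and could hardly be called lower. The same holds for listed genes with few control counts, such as FOXD3-AS1, MLANA, CITED1 and MMP2 below. In reverse, genes with few counts after knockdown, such as PAX1 and TFAP2C below, were tested because of the siNeg1 libraries. They could hardly be called higher. Over all genes tested, 19.9% were called higher and 20.3% lower with siEA1-1, and 18.5% higher and 18.2% lower with siEA1-2. The median log2FC of the 9 factors was 1.30 with siEA1-1 and 1.03 with siEA1-2, beside 0.02 and 0.00 over all genes. All 4 knockdown libraries lay above both siNeg1 libraries for 6 of the 9, the same 6 that were called, against 28.1% of all genes, and below both for 0 of the 9, against 27.3%. In RNA of whole cultures, a change in the share of cells that express a gene and a change in its RNA per cell cannot be told apart.

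**Figure D1:**
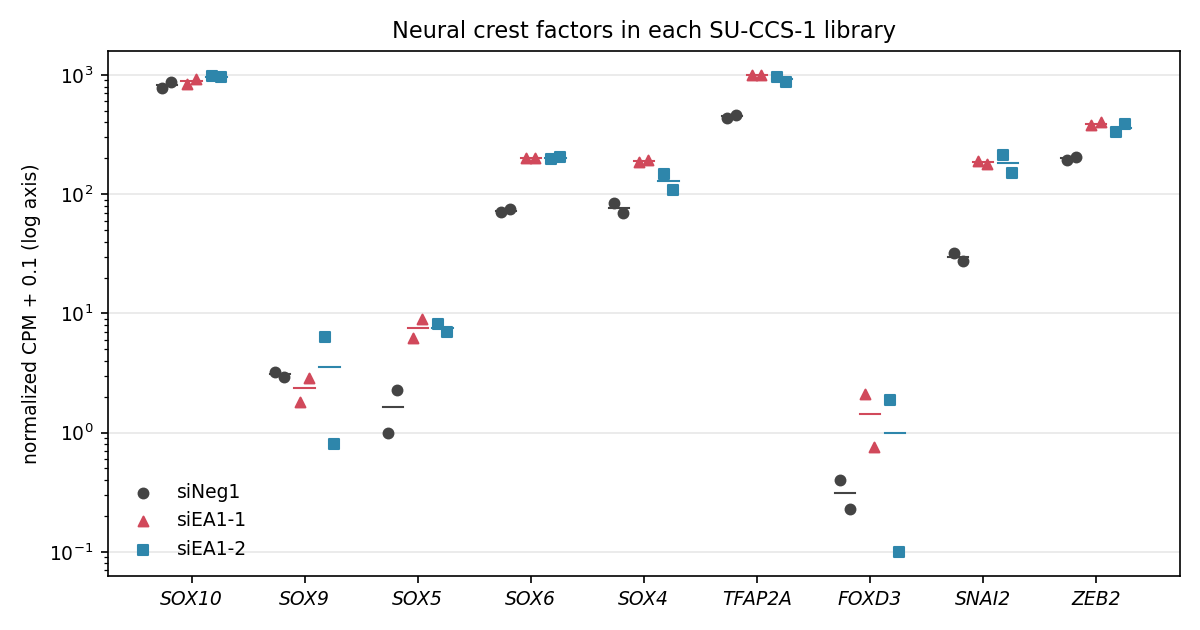
Normalized CPM plus 0.1 on a log axis for each of the 9 factors, with 1 point per library (black circles siNeg1, red triangles siEA1-1, blue squares siEA1-2) and a short line at the mean of each pair. The siNeg1 points of SOX5, SOX6, SOX4, TFAP2A, SNAI2 and ZEB2 lie below all 4 knockdown points, those of SOX10 lie between 786 and 868 CPM beside 847 to 979 after knockdown, and those of SOX9 and FOXD3 are at a few CPM or less with widely spread siEA1-2 points.

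SOX10 and SOX9 are SOXE factors, and SOX10 is the one that persists in melanocytes and Schwann cells. SOX10 (ENSG00000100146, chr22:37970686-37987422 of hg38, minus strand) had the highest level per length of all factors in control cells. Its CPM were 786 and 868 with siNeg1, 847 and 918 with siEA1-1, and 979 and 954 with siEA1-2. The siEA1-2 pair lay above both controls, whereas 1 siEA1-1 library lay between them. The log2FC was 0.09 (SE 0.11, 95% interval -0.14 to 0.33, adjusted p = 0.522) with siEA1-1 and 0.23 (SE 0.11, 95% interval -0.01 to 0.46, adjusted p = 0.125) with siEA1-2. These intervals bound the change that the fit allows for SOX10, and changes within them are not excluded. Its exons share 260 bases, 5.39% of their length, with exons of POLR2F on the other strand, a subunit of the RNA polymerases that had 2424 counts over the 6 libraries and rose with both siRNAs (log2FC 0.82 and 0.36). Whether counting respected strand is not given in the sources used here, and reads of the shared bases cannot be told apart.

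SOX9 (ENSG00000125398, chr17:72121020-72126416, plus strand), the regulator of cartilage formation and of early crest, was low. It had 21 and 22 counts with siNeg1, 12 and 17 with siEA1-1, and 35 and 5 with siEA1-2. The siEA1-2 libraries held both the highest and the lowest value, so the groups overlapped. The log2FC was -0.41 (SE 0.74, 95% interval -2.03 to 1.21, adjusted p = 0.695) and 0.16 (SE 0.71, 95% interval -1.40 to 1.72, adjusted p = 0.886). Without siEA1-2 replicate 1, which held the 35 counts, the second value was -2.08 (adjusted p = 0.0608), and without siEA1-2 replicate 2 it was 1.03 (adjusted p = 0.134). The direction for SOX9 rested on single libraries.

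SOX5 and SOX6 are the SOXD pair, which cooperate with SOX9 in cartilage and oppose SOX10 in melanocytes. SOX6 (ENSG00000110693, chr11:15966449-16739591, minus strand) stood at 70.8 and 74.6 CPM with siNeg1, 201 and 202 with siEA1-1, and 196 and 207 with siEA1-2. The 4 knockdown libraries lay close to each other and far above both controls. Its log2FC was 1.47 (SE 0.10) with each siRNA, a fold of 2.76 and 2.77, with adjusted p values of 1e-06 and 1.23e-06. SOX5 (ENSG00000134532, chr12:23529504-24562544, minus strand) was low, with 6 and 17 counts under siNeg1, 43 and 54 under siEA1-1 and 45 and 49 under siEA1-2. The lowest knockdown library held more than both controls. In CPM the means were 1.54 ± 0.911 (SD, n = 2), 7.50 ± 1.96 and 7.44 ± 0.80 (SD, n = 2 each). The log2FC was 2.23 (SE 0.43, adjusted p = 0.00163) with siEA1-1 and 2.22 (SE 0.43, adjusted p = 0.00198) with siEA1-2. Without siNeg1 replicate 2, the SOX5 values were 3.0 and 2.99, and without siNeg1 replicate 1 they were 1.76 and 1.76, all called.

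SOX4 (ENSG00000124766, chr6:21593751-21598619, plus strand), a single-exon SOXC factor of progenitor cells, stood at 84.4 and 70.1 CPM with siNeg1, 187 and 193 with siEA1-1, and 149 and 109 with siEA1-2. Every knockdown library exceeded both controls, and the siEA1-2 pair lay between the controls and the siEA1-1 pair. The log2FC was 1.30 (SE 0.15, adjusted p = 3.44e-05) with siEA1-1 and 0.74 (SE 0.15, adjusted p = 0.00232) with siEA1-2, folds of 2.47 and 1.67. Without siEA1-2 replicate 1 the second value was 0.48 (adjusted p = 0.00983).

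TFAP2A (ENSG00000137203, chr6:10393186-10419659, minus strand) is an early specifier of the neural plate border and a cofactor of MITF in melanocytes. It stood at 439 and 458 CPM with siNeg1, 1001 and 1008 with siEA1-1, and 971 and 869 with siEA1-2. The gap between the controls and the lowest knockdown library was wider than the spread within any pair. The log2FC was 1.16 (SE 0.11, adjusted p = 8.22e-06) with siEA1-1 and 1.03 (SE 0.11, adjusted p = 2.36e-05) with siEA1-2, a fold of 2.24 and 2.05. Its exons share 438 bases, 5.33% of their length, with TFAP2A-AS1 on the other strand and 941 bases, 11.4%, with TFAP2A-AS2. TFAP2A-AS1 rose too, with log2FC of 2.08 and 1.61, but held 886 counts in all 6 libraries, fewer than TFAP2A held in any 1 of them. TFAP2A-AS2 held 57.

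FOXD3 (ENSG00000187140, chr1:63322567-63325128, plus strand) maintains crest progenitors and represses MITF in the embryo. It had 2 and 1 counts with siNeg1, 14 and 4 with siEA1-1, and 10 and 0 with siEA1-2. Both siEA1-1 libraries were above both controls, and the siEA1-2 libraries lay on either side. Over the summed counts of a group, FOXD3 was 6.62 times its control level with siEA1-1 (95% counting interval 1.93 to 35.1, for 18 against 3 counts) and 3.78 times with siEA1-2 (0.974 to 21.4, for 10 against 3 counts). These intervals cover counting error only. In the edgeR fit neither was called (adjusted p = 0.127 and 0.322), and without siEA1-2 replicate 1 the fitted log2FC for siEA1-2 was -3.67. Its neighbour FOXD3-AS1, which shares 24.1% of the FOXD3 exon on the other strand, had 2 and 3 counts with siNeg1, 16 and 12 with siEA1-1, and 12 and 8 with siEA1-2. FOXD3-AS1 was called with both siRNAs (adjusted p = 0.0114 and 0.0355), at 6.18 times (2.36 to 20.5) and 4.54 times (1.65 to 15.5) the control level. Like FOXD3, it was tested because of knockdown libraries where it is high, and could hardly be called lower. Its call is therefore no support for a rise of FOXD3, and its intervals too cover counting error only. The FOXD3 promoter is the one printed above with the full TGACGTCA, and whether that match is bound or bears on these counts was not tested.

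SNAI2 and ZEB2 are zinc finger repressors of epithelial genes, and both are active in melanocytes. SNAI2 (ENSG00000019549, chr8:48917598-48921740, minus strand), also called SLUG, had the largest fitted log2FC among the called factors, except without siNeg1 replicate 2, where SOX5 was at 3.0 and 2.99 and SNAI2 at 2.51 and 2.48. It stood at 31.7 and 27.6 CPM with siNeg1, 189 and 180.3 with siEA1-1, and 213 and 151 with siEA1-2. Every knockdown library was far above both controls, and the siEA1-2 pair had the widest spread. The log2FC was 2.64 (SE 0.16, 95% interval 2.28 to 3.0, adjusted p = 5.95e-07) with siEA1-1 and 2.62 (SE 0.16, 95% interval 2.26 to 2.97, adjusted p = 7.54e-07) with siEA1-2, folds of 6.23 and 6.13. ZEB2 (ENSG00000169554, chr2:144364364-144521057, minus strand) stood at 195 and 204 CPM with siNeg1, 379 and 403 with siEA1-1, and 332 and 385 with siEA1-2. Its knockdown libraries did not overlap the controls. Its log2FC was 0.97 (SE 0.11, adjusted p = 3.04e-05) with siEA1-1 and 0.85 (SE 0.11, adjusted p = 0.000103) with siEA1-2, folds of 1.96 and 1.80. Exons of ZEB2-AS1 cover 4.97% of the ZEB2 exons and held 30 counts in all.

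**Figure D2:**
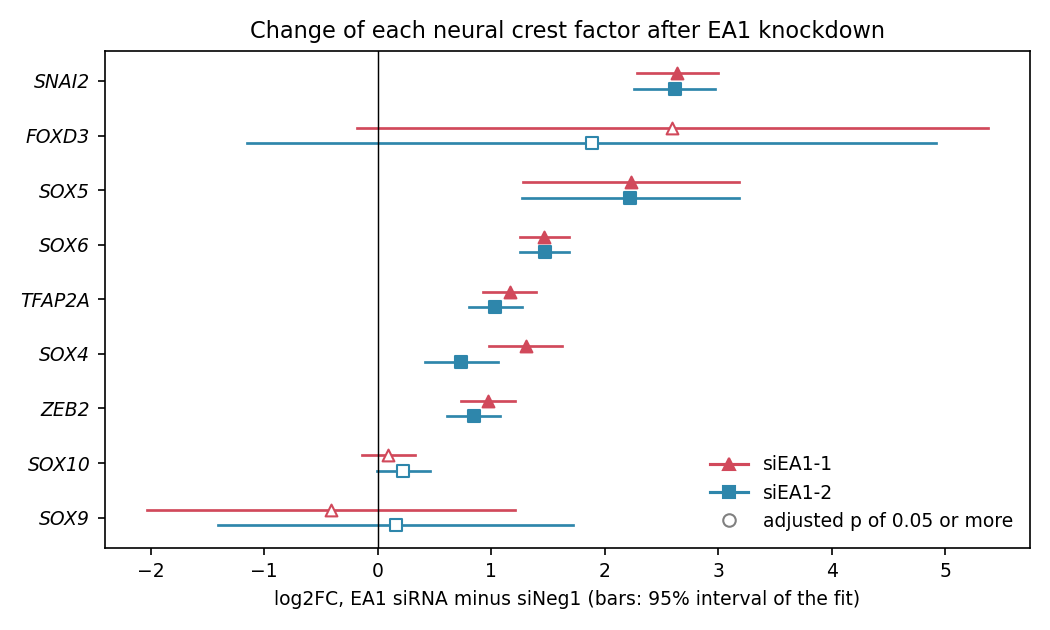
log2FC of each factor, EA1 siRNA minus siNeg1, with siEA1-1 as red triangles and siEA1-2 as blue squares, bars for the 95% interval of the edgeR fit and open symbols for an adjusted p of 0.05 or more. SNAI2, at 2.64 and 2.62, is farthest right among the filled symbols, SOX10 is near 0 with narrow bars, and SOX9 and FOXD3 have the widest bars.

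The contrasts share the siNeg1 libraries, so the likeness of their values is no independent repeat, and the siRNAs were also tested against each other. Between siEA1-1 and siEA1-2, edgeR called 0 of the 9 factors, against 2.24% of all genes in either direction, and 1 of the 9, SOX4, had an unadjusted p under 0.05. SOX4 came nearest to the threshold, with a siEA1-1 minus siEA1-2 difference in log2FC of 0.57 (SE 0.14, 95% interval 0.25 to 0.88, adjusted p = 0.0684). It was called by DESeq2 over all 6 libraries (0.55, adjusted p = 0.0260), by edgeR with the replicate number as a block (0.58, adjusted p = 0.00955) and by edgeR without siEA1-2 replicate 1 (0.80, adjusted p = 0.00148), and over all alternatives its adjusted p lay between 0.00148 and 0.378. For SNAI2 the difference was 0.02 (95% interval -0.29 to 0.34), for SOX6 it was 0.00 (-0.21 to 0.20), for TFAP2A 0.13 (-0.10 to 0.36) and for ZEB2 0.12 (-0.11 to 0.36). These intervals bound the differences that the fit allows. For SOX5, SOX9 and FOXD3 the intervals were wider, at -0.80 to 0.81, -2.21 to 1.06 and -1.55 to 2.98.

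Levels were compared between factors only per length, as CPM per kb of the canonical transcript. In control cells the order was SOX10 (287 ± 20.2), TFAP2A (143 ± 4.22), ZEB2 (21.5 ± 0.709), SOX4 (15.9 ± 2.08), SNAI2 (13.6 ± 1.33), SOX6 (7.81 ± 0.287), SOX9 (0.76 ± 0.0566), SOX5 (0.218 ± 0.129) and FOXD3 (0.0835 ± 0.0471), all as SD with n = 2. The ranges of SOX4, 14.4 to 17.3, and SNAI2, 12.7 to 14.6, overlapped, and those of all other neighbours in the order did not. With all annotated exons as the length, ZEB2 moved from place 3 to place 5, behind SOX4 and SNAI2. SOX10 lay above 99.1% and TFAP2A above 97.6% of the 14532 tested genes with a length, whereas SOX9, SOX5 and FOXD3 lay above 9.05%, 2.17% and 0.667% of them. After knockdown TFAP2A reached 320 ± 1.66 with siEA1-1 and 293 ± 23.0 with siEA1-2, beside 306 ± 17.2 and 335 ± 6.13 for SOX10. SNAI2 reached 84.7 ± 2.77 and 83.5 ± 20.3, above ZEB2 at 42.2 ± 1.87 and 38.7 ± 4.0, on this length the reverse of their order in control cells. With all annotated exons as the length, SNAI2 was above ZEB2 in control cells already, at 9.05 beside 7.63, and TFAP2A stayed below SOX10 after knockdown, at 122 beside 183 with siEA1-1 and 112 beside 200.3 with siEA1-2.

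**Figure D3:**
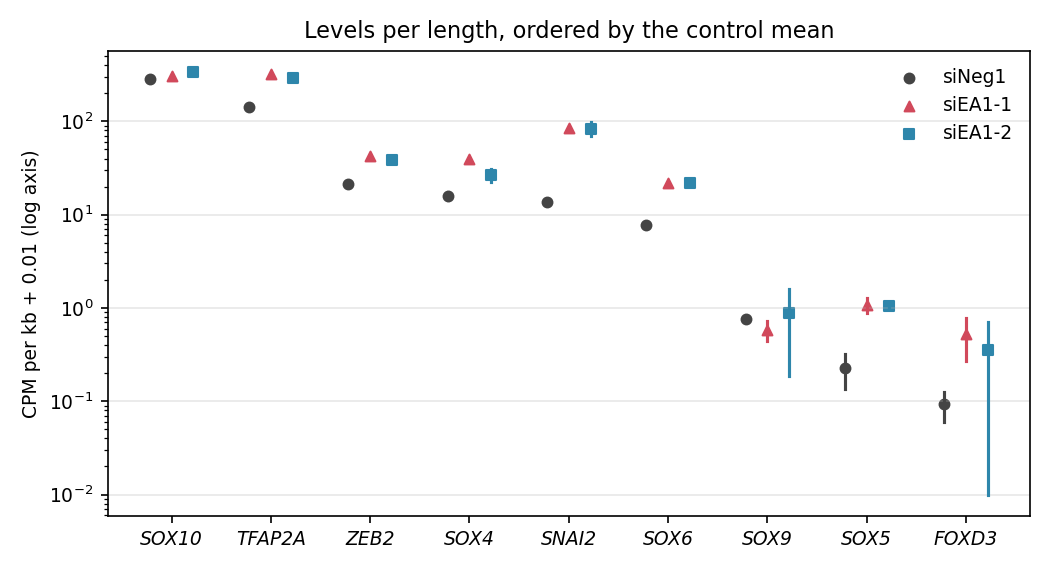
CPM per kb of canonical transcript plus 0.01 on a log axis, with factors ordered by their siNeg1 mean, symbols for the mean of 2 libraries and vertical lines from the lower to the higher library. On this length, TFAP2A lies at 320 and 293 after knockdown beside SOX10 at 306 and 335, SNAI2 lies below ZEB2 and SOX4 with siNeg1 and above both after knockdown, and SOX9, SOX5 and FOXD3 stay under 2 CPM per kb in every library.

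The nearest relatives of the factors were followed as a set of 14 other SOX genes and a set of 16 other TFAP2, PAX, SNAIL and ZEB genes. Each set had 5 genes in the table, all tested. With both EA1 siRNAs averaged, 21.5% of all genes were called higher and 22.1% lower. Of the other TFAP2, PAX, SNAIL and ZEB genes, 5 of 5 fell and 0 rose, with a median log2FC of -2.02 beside 0.01 over all genes. PAX1 and TFAP2C among them passed the filter on low counts only through the siNeg1 libraries, where they are high. The count and the median lean toward a fall for that reason. SNAI1 (SNAIL), the paralog of SNAI2, stood at 25.3 and 27.0 CPM with siNeg1, 3.84 and 9.39 with siEA1-1, and 3.74 and 8.70 with siEA1-2. Its log2FC was -2.0 (SE 0.38, adjusted p = 0.00128) and -2.03 (SE 0.38, adjusted p = 0.00138). Per length, the ratio of SNAI2 to SNAI1 was 0.801 to 0.981 in the control libraries and 13.5 to 44.7 in the knockdown libraries.

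ZEB1, the paralog of ZEB2, stood at 17.2 and 20.3 CPM with siNeg1, 9.95 and 10.5 with siEA1-1, and 14.6 and 9.97 with siEA1-2. ZEB1 was called lower with siEA1-1 (log2FC -0.88, SE 0.23, adjusted p = 0.0101) and, close to the threshold, with siEA1-2 (-0.63, SE 0.23, adjusted p = 0.0498). The ratio of ZEB2 to ZEB1 per length was 6.44 to 7.25 in control and 14.6 to 24.7 after knockdown. TFAP2C, an AP-2 factor of trophoblast, germ cells and early crest, fell from 16.5 and 14.1 CPM to 1.85 and 0.823 with siEA1-1 and 1.07 and 0.562 with siEA1-2. Its log2FC was -3.47 (SE 0.40, adjusted p = 3.94e-05) and -4.24 (SE 0.44, adjusted p = 2.45e-05), and the TFAP2A to TFAP2C ratio went from 24.3 to 29.5 in control to 493 to 1409 after knockdown. PAX1 and PAX9, factors of the sclerotome and pharyngeal pouches, fell as well. PAX1 had 86 and 49 counts in control and at most 2 in any knockdown library, 61.2 times lower with siEA1-1 (95% counting interval 16.6 to 510.3) and 59.5 times lower with siEA1-2 (16.1 to 496). These intervals, over summed counts, cover counting error only and not the spread between the libraries of a group. The log2FC of PAX9 was -1.62 and -1.66 (SE 0.15 each).

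Among the other SOX genes, 2 of 5 rose and 1 fell with both siRNAs averaged, beside 21.5% and 22.1% of all genes. SOX13, the third SOXD gene beside SOX5 and SOX6, went from 39.5 and 44.4 CPM to 107 and 105 with siEA1-1 and 86.3 and 84.8 with siEA1-2 (log2FC 1.34 and 1.03, SE 0.11 each). SOX12, a SOXC relative of SOX4, went from 75.4 and 79.6 CPM to 183 and 197 with siEA1-1 and 163 and 128 with siEA1-2 (log2FC 1.29, SE 0.12, and 0.90, SE 0.13). Per length, the ratio of SOX6 to SOX13 was 0.737 to 0.785 in control and 0.819 to 1.07 after knockdown, and that of SOX4 to SOX12 was 0.845 to 1.07 in control and 0.816 to 0.982 after knockdown. SOX1, a factor of neural progenitors, fell from 49.1 and 42.7 CPM to 14.2 and 13.7 with siEA1-1 and 16.5 and 17.7 with siEA1-2 (log2FC -1.71 and -1.42, SE 0.16 each). SOX8, the third SOXE gene, had log2FC of 0.33 and -0.54, and SOX2 of 0.41 and 0.54, and neither was called. Reads shared between close paralogs could be split between them in counting, which was not tested.

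**Figure D4:**
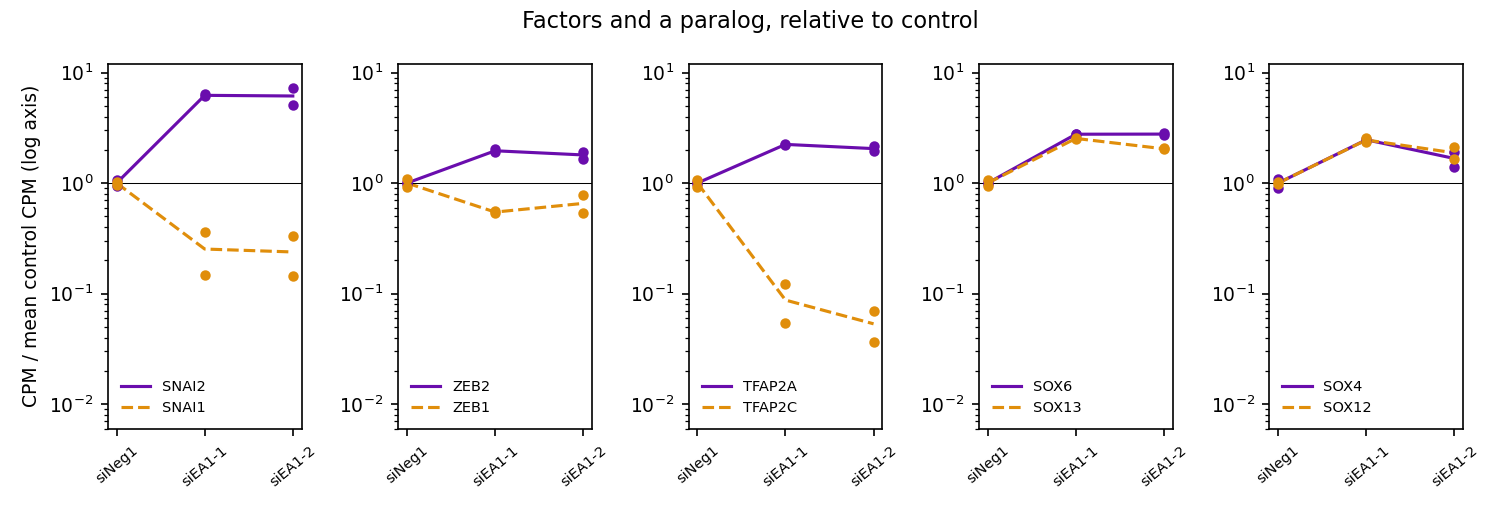
CPM of 5 factors (solid purple) and a paralog of each (dashed orange) divided by the mean of the siNeg1 libraries, on a log axis, with 1 point per library and lines through the group means. SNAI2, ZEB2 and TFAP2A lie above 1 while SNAI1, ZEB1 and TFAP2C lie below 1 in all 4 knockdown libraries, and SOX6 with SOX13 and SOX4 with SOX12 lie above 1 together.

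Genes that SOX10, PAX3 and TFAP2A are known to activate in the melanocyte and glial lineages were mostly higher. Of 22 listed, 20 were tested, and 14 rose and 1 fell over both siRNAs, beside 21.5% and 22.1% of all genes. Their median log2FC was 1.81, beside 0.01 over all genes. The number that fell was 2 to 3 without siNeg1 replicate 1 or siEA1-2 replicate 2. TYR, the tyrosinase of melanin synthesis, went from 11.5 and 12.7 CPM to 93.4 and 86.8 with siEA1-1 and 136 and 106 with siEA1-2 (averaged log2FC 3.10). DCT, which acts after it, went from 145 and 115 CPM to 1029 and 851 and to 1696 and 780.0 (averaged log2FC 3.05). MLANA, a melanosome protein, was low, with 4 and 0 counts in control and 11 to 24 after knockdown (averaged log2FC 3.10). Of the 3 factors that define the list, SOX10 had log2FC of 0.09 and 0.23 and TFAP2A of 1.16 and 1.03, and PAX3 was not analysed here. Whether any of them lies behind these changes was not tested.

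All 8 of a list of melanocytic markers, MITF and S100B among them, were called higher with each siRNA. Over all genes tested, 19.9% were called higher with siEA1-1 and 18.5% with siEA1-2. The summed level of the 8 markers was 1901 to 2239 CPM in control and 6489 to 11057 after knockdown. All of these markers but S100A1 are also in the list of SOX10, PAX3 and TFAP2A targets. The marker lists of other cell types were at or near 0, with 2 of 6 epithelial, 1 of 5 immune, 2 of 4 endothelial and 0 of 5 muscle genes in the table and none of those tested. Of the fibroblast markers 2 of 6 were in the table. Their summed level was 2.70 to 3.44 CPM in control and 8.89 to 23.0 after knockdown, with LUM, the proteoglycan lumican, called higher (averaged log2FC 3.05).

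Of 16 cartilage genes controlled by SOX9 with SOX5 and SOX6, 8 were tested, and 3 rose and 0 fell, beside 21.5% and 22.1% of all genes. The number that rose was 1 without siNeg1 replicate 2, and 1 gene fell without siEA1-2 replicate 2. ACAN, the cartilage proteoglycan aggrecan, had 8 and 13 counts in control, 28 and 58 with siEA1-1, and 56 and 82 with siEA1-2 (log2FC 2.19, SE 0.47, adjusted p = 0.00319, and 2.88, SE 0.46, adjusted p = 0.000495). COL9A3, a chain of collagen IX, had 272 and 236 CPM in control and 298 to 369 after knockdown (averaged log2FC 0.42).

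In a wider list of 35 neural crest factors, 24 were tested, and 8 rose and 7 fell over both siRNAs, beside the 21.5% and 22.1% of all genes given above. The median log2FC was -0.13. ID2, an inhibitor of basic helix-loop-helix factors, went from 67.0 and 61.8 CPM to 315 and 317 with siEA1-1 and 339 and 271 with siEA1-2 (averaged log2FC 2.27). CITED1, a cofactor found in melanocytes, had 0 and 2 counts in control, 24 and 24 with siEA1-1, and 18 and 6 with siEA1-2, or 26.5 times (6.94 to 225) and 13.6 times (3.38 to 119) the control level over summed counts. The ranges in brackets are counting intervals and leave out the spread between libraries. TFAP2C and SNAI1, described above, were the genes of this list that fell most.

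Of 26 signals and receptors that act on the crest, 15 were tested, and 4 rose and 6 fell, beside 21.5% and 22.1% of all genes. EDNRB, the endothelin receptor of crest and melanoblasts, went from 262 and 288 CPM to 1767 and 1868 with siEA1-1 and 1946 and 1324 with siEA1-2 (averaged log2FC 2.65). BMP2, a ligand that induces the crest, fell from 121 and 106 CPM to 12.1 and 14 with siEA1-1 and 13.2 and 10.4 with siEA1-2 (averaged log2FC -3.20). NRG1, the ligand of ERBB3 in glia, fell from 86 and 89 counts to at most 10 in any knockdown library (averaged log2FC -3.95). FGFR1, an FGF receptor, fell from 1453 and 1369 CPM to between 283 and 449.8 (averaged log2FC -2.02).

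Of 18 adhesion and related genes of the change between epithelium and mesenchyme, 10 were tested, and 5 rose and 4 fell, beside 21.5% and 22.1% of all genes. The number that fell was 1 to 2 without siNeg1 replicate 1, siNeg1 replicate 2, siEA1-1 replicate 1 or siEA1-1 replicate 2. CDH7, a cadherin of migrating crest, went from 10.8 and 11.8 CPM to 120 and 143 with siEA1-1 and 140 and 112 with siEA1-2 (averaged log2FC 3.50). MMP2, a matrix protease, had 4 and 3 counts in control and 15 to 39 after knockdown (averaged log2FC 3.30). ESRP1, a splicing factor of epithelial cells, went from 19.3 and 13.5 CPM to between 69.1 and 80.3 (averaged log2FC 2.20). DSP, the desmosomal protein desmoplakin, went from 24.2 and 64.8 CPM to between 6.26 and 23.1 (averaged log2FC -1.73). Of 15 corepressors used by SNAIL and ZEB proteins, all tested, 1 rose and 5 fell, beside the same 21.5% and 22.1% of all genes. The number that rose was 0 to 2 when any library other than siEA1-2 replicate 1 was left out, and the number that fell was 3 without siNeg1 replicate 1. EZH2, the histone methyltransferase, fell by 1.00 and SUZ12, its partner, by 0.76 on the averaged log2 scale.

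The genes most like 2 of the factors over the 6 libraries were found by Pearson's r of log2 CPM among tested genes with a mean of at least 10 CPM, as a description of points that share 3 conditions. MED15, LYRM7 and PPIL2 were most like SOX10, each at r = 0.990, and 34 of 9890 genes exceeded 0.95. STK32A (r = 0.9996), FSTL1 (0.9994) and KIDINS220 (0.9993) were most like SNAI2, and 963 of 9890 genes exceeded 0.95.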

How the data were processed

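RNA of 6 SU-CCS-1 libraries was sequenced. The authors used BWA-MEM for alignment to hg38 and featureCounts 1.6.3 for gene counts, and the deposited counts are raw. The submitters' processing notes name DESeq2 3.11. The annotation and strand setting used in counting are not given in the sources used here. Groups were taken from the sample titles, and 0 columns of samples were left unused. GENCODE release 44 (hg38) held 18063 of the 18118 gene identifiers and gave positions, lengths and overlaps, and 2589 genes carry no symbol.

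From the deposited counts, edgeR 4.0.16 (R 4.3.3) was run with filterByExpr (minimum count 10, minimum total 15), TMM scaling and the quasi-likelihood test with all 6 libraries in 3 groups, with Benjamini-Hochberg adjustment over 14571 genes and a threshold of 0.05. The common biological coefficient of variation came to 0.109, and a prior count of 2 was added for log2 CPM. Contrasts were each EA1 siRNA against siNeg1, their mean against siNeg1, and siEA1-1 against siEA1-2. Promoter motifs were searched in Python 3.11.15.

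The members and the gene lists were chosen with earlier results of these data known. From each list, at most 4 genes were named, those with the largest averaged log2FC in size among genes called with each EA1 siRNA in the same direction and with both control libraries on one side of all 4 knockdown libraries. Paralogs and neighbours of a factor were named whether called or not. A gene that this rule selects is not reported here. The 3 most alike genes were named for SOX10 and SNAI2, the latter having the largest called averaged log2FC. Alternatives were no filter, a minimum of 10 counts in each library, size factors by RLE, a replicate block, DESeq2 1.42.0, only the 4 libraries compared, thinning to the smallest total count, the knockdown libraries as 1 group and each library left out.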

Additional observations from a re-analysis of the deposited data

Results flagged for a closer look

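For 6 of the 98 genes tested in the lists that accompany the factors, beside 2.24% of all genes, the change differed between the EA1 siRNAs by edgeR's test of the difference itself (siEA1-1 minus siEA1-2 log2FC, Benjamini-Hochberg adjusted over all genes). ERBB3, the neuregulin receptor of crest and glia, stood at 586 and 697 CPM with siEA1-1 against 235 and 286 with siEA1-2, beside 170.0 and 230 in control, a difference of 1.30 (SE 0.15, adjusted p = 0.00246). CHL1, a neural adhesion molecule, differed by 1.21 (SE 0.27, adjusted p = 0.0444), with 37.3 and 61.9 CPM against 16 and 26.1, and 31.3 and 43.2 in control. CDH2, or N-cadherin, differed by 0.93 (SE 0.17, adjusted p = 0.0182), with 35.7 and 31.3 CPM against 15.8 and 19.2, and 33.8 and 30.1 in control. SUZ12, a Polycomb subunit, differed by -0.66 (SE 0.11, adjusted p = 0.0117), with 62.6 and 57.0 CPM against 96.3 and 92.8, and 122 and 132 in control. GJB1, a gap junction protein of myelinating glia, differed by -0.58 (SE 0.11, adjusted p = 0.0170), with 58.7 and 62.7 CPM against 87.8 and 94.2, and 84.7 and 87.3 in control. CXCL12, a chemokine that guides crest cells, differed by -0.54 (SE 0.12, adjusted p = 0.0417), with 86.2 and 81.7 CPM against 136 and 109, and 134 and 139 in control. The 6 genes were picked by the test of this difference, so the separation of their siEA1-1 and siEA1-2 libraries is no further support. What sets the siRNAs apart there was not tested. ERBB3 was called with each library left out in turn (adjusted p up to 0.0294). GJB1, CDH2 and SUZ12 were not called without siEA1-1 replicate 1 or siEA1-1 replicate 2 (adjusted p up to 0.194, 0.139 and 0.208). CHL1 was not called without siNeg1 replicate 1, siEA1-1 replicate 2 or siEA1-2 replicate 1 (adjusted p up to 0.396), and CXCL12 was called only in the fit without siEA1-2 replicate 2 among those that leave out a library (adjusted p up to 0.356 in the others). None of the 9 factors was among the 6 genes. Groups of 2 libraries were too small for a check of single outlying libraries.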

How the results depend on the processing

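The number of the 9 factors called was 6 with siEA1-1, with siEA1-2 and with their mean under the 15 alternatives wherever they give these values, except with at least 10 counts in every library, where SOX5, SOX9 and FOXD3 were not tested and 5 were called, and for the mean without siEA1-2 replicate 2, where FOXD3 (2.76, adjusted p = 0.0305) made 7. No called log2FC changed sign. Between siEA1-1 and siEA1-2 the number called was 0, and it was 1, SOX4, with the replicate number as a block (difference 0.58, adjusted p = 0.00955), with DESeq2 over all 6 libraries (0.55, adjusted p = 0.0260) and with DESeq2 over only the 4 libraries compared (0.56, adjusted p = 0.0333). It ranged from 0 to 1 over fits without 1 library, being 1 without siEA1-2 replicate 1. The cause was not tested. Deviations of same-numbered libraries correlated at 0.130, 0.199 and 0.144 over genes, but the labels do not say that a number marks a shared culture or day, and the block changed no other call of a factor. FOXD3 was called under no other alternative, and its sign and that of SOX9 varied with the library left out.
Among counts of the 9 gene lists, 891 stayed within 1.5 times under an alternative and 99 did not. The largest shift of the median over all genes was -0.05. SOX9, SOX5 and FOXD3 had the fewest counts, and at this depth the counting interval of the FOXD3 ratio with siEA1-2, 0.974 to 21.4, included 1.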
